A study of Homo sapiens with 6 samples.

Results

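The genes described here are the aminoacyl-tRNA synthetases, the enzymes that join each amino acid to its tRNA, with the scaffold protein AIMP1 of the complex that holds some of them. They were taken by name from a list of 37 genes, a family proposed with results of these same arrays known, so the counts below describe it and support nothing further. A gene counted as measured when a probe set of the array carried its symbol and no other. Of the 37, 36 were measured, among 18417 genes in all: 19 cytosolic enzymes, 16 mitochondrial enzymes and AIMP1. The other listed scaffold gene, AIMP2, was not analysed here. Probe sets of the same gene were selected on their mean over the 6 arrays, the highest being read. This touched 2 members, VARS1 and VARS2, whose 2 probe sets held identical values.

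The study compared 3 arrays of RB-deficient cells with 3 arrays of RB-proficient cells. All 6 came from MCF10A, an immortal line of human breast epithelium that forms no tumours, named in the series together with ErbB2, a receptor tyrosine kinase. They grew for 7 days within a reconstituted membrane in medium with horse serum, insulin, cholera toxin and hydrocortisone. RB is the retinoblastoma protein, which restrains the E2F transcription factors. The sample titles carry the tag miRB for the RB-deficient and miNS for the RB-proficient arrays, which the labels do not spell out. Whether each array had a culture of its own is not stated either, and every p-value here reflects array-to-array spread that may be technical.

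Charging of tRNA supplies the ribosome with its substrates, and a cell needs it in 2 places, in the cytosol and in the mitochondrial matrix. Most amino acids have a separate nuclear gene for the mitochondrial enzyme, written with a final 2, while GARS1 and KARS1 each encode both forms. In the cytosol several enzymes sit in a multi-synthetase complex, held together by AIMP scaffold proteins. Many cytosolic enzymes are targets of ATF4, the transcription factor of the amino acid response, and proliferating or secreting epithelium draws heavily on charged tRNA.

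Levels are given as log2 of the intensity, with arrays brought to the same median, and differences are RB-deficient minus RB-proficient on that scale, with the standard error (SE) of the limma fit and n = 3 per group. RB1, which encodes RB, gave 3.45, 5.09 and 6.04 in RB-deficient arrays 1 to 3 and 7.01, 5.77 and 7.65 in RB-proficient arrays 1 to 3, a difference of −1.95 (SE 0.76, adjusted p 0.302). The groups overlapped for RB1, so each direction below rests on the labels. RB-deficient arrays 1 and 2 stood apart, also from each other. Across genes, which are not independent replicates, they correlated with the RB-proficient arrays at 0.684 to 0.755 and with each other at 0.673. RB-deficient array 3 correlated with the RB-proficient arrays at 0.832 to 0.882, and with RB-deficient arrays 1 and 2 at 0.713 and 0.753. Correlations among the RB-proficient arrays were 0.901 to 0.924. Genes at the floor made up 4.71% and 1.62% in RB-deficient arrays 1 and 2, 0.684% in RB-deficient array 3 and 0.326% to 0.684% in RB-proficient arrays. ERBB2 differed by −1.31 (SE 0.48, adjusted p 0.288), with every RB-deficient value below every RB-proficient value, as for 15.3% of all genes. All genes together had a median difference of −0.21, which centring each array on its gene median moved to −0.077 and quantile normalization to −0.092. The share of genes with an unadjusted p under 0.05 that were higher was 20.8%, and 32.5% with centred arrays. Of 6 reference genes 4 were lower and 2 higher, and the groups of 4 overlapped. The other two, ACTB (−1.92, SE 0.50) and GAPDH (−1.23, SE 0.47), were lower in all 3 RB-deficient arrays than in every RB-proficient array. The part of these shifts in the results below was not tested. Of 11 measured markers of basal and luminal mammary epithelium 9 were lower, with a median of −1.32 and summed levels of 71.3 to 78.3 in RB-deficient arrays, against 87.2 to 91.5 in RB-proficient arrays, and KRT5, a basal keratin, gave 9.58, 6.38 and 7.42 in RB-deficient arrays and 9.63, 9.31 and 11.65 in RB-proficient arrays. Summed levels of 9 fibroblast markers were 30.7 to 39.9 in RB-deficient and 37.1 to 38.5 in RB-proficient arrays, and those of 7 leukocyte markers 33.4 to 34.3 in RB-deficient and 33.0 to 34.4 in RB-proficient arrays. Of 7 endothelial markers 4 were lower, with a median of −0.41. Of the 9 fibroblast markers 4 were lower and 5 higher, with a median of 0.32. COL1A1 differed by 0.83, and COL3A1 and THY1 were at the floor, log2 of 0, in RB-deficient array 1.

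Synthetase signals were mostly lower in the RB-deficient arrays, in the cytosolic enzymes more than in the mitochondrial ones by the medians of all 6 arrays. Of 19 cytosolic enzymes 18 were lower, with a median difference of −1.27, and of 16 mitochondrial enzymes 13 were lower, with a median of −0.69. Over all genes tested 58.6% were lower and 41.4% higher, with a median of −0.21. In such bulk samples fewer cells of a type and less RNA per cell cannot be told apart. With centred arrays the medians were −1.13 cytosolic and −0.56 mitochondrial. Every RB-deficient value lay below every RB-proficient value for 12 cytosolic and 8 mitochondrial enzymes, against 15.3% of all genes. VARS2, a mitochondrial enzyme, had its groups apart in the other direction, as had 7.12% of all genes, and groups were apart in either direction for 21 of 36 members and 22.4% of all genes.

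No member passed the threshold. With limma and a threshold of 0.05 on the adjusted p, 0 of 36 members and 0.00543% of all genes (1 of 18417) passed. The smallest adjusted p among members was 0.166, for FARSA. At an unadjusted p under 0.05, 14 members were lower, 9 of them cytosolic and 5 mitochondrial, and 0 were higher, where 10.8% of all genes were lower and 2.85% higher. On data simulated for this comparison over 18417 genes, few of them changed, the test recovered 1.4% of 4-fold and 25.4% of 8-fold changes. Most such changes were thus missed with 3 arrays a group. Each simulated gene had the same spread in both groups, pooled from its measured values. In the data the groups were unequal, with median SDs over all genes of 0.84 in RB-deficient and 0.40 in RB-proficient arrays. What this inequality does to the rates was not tested. Members had 0.61 and 0.51, so their rates may differ. With an offset of 16 added before log2, FARSA, SARS1 and MARS1 passed (1.01% of all genes passed as lower), and FARSA also passed with a floor of 16 (0.261% of all genes passed as lower) and with eBayes with trend and robust (0.331%).

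**Figure D1:**
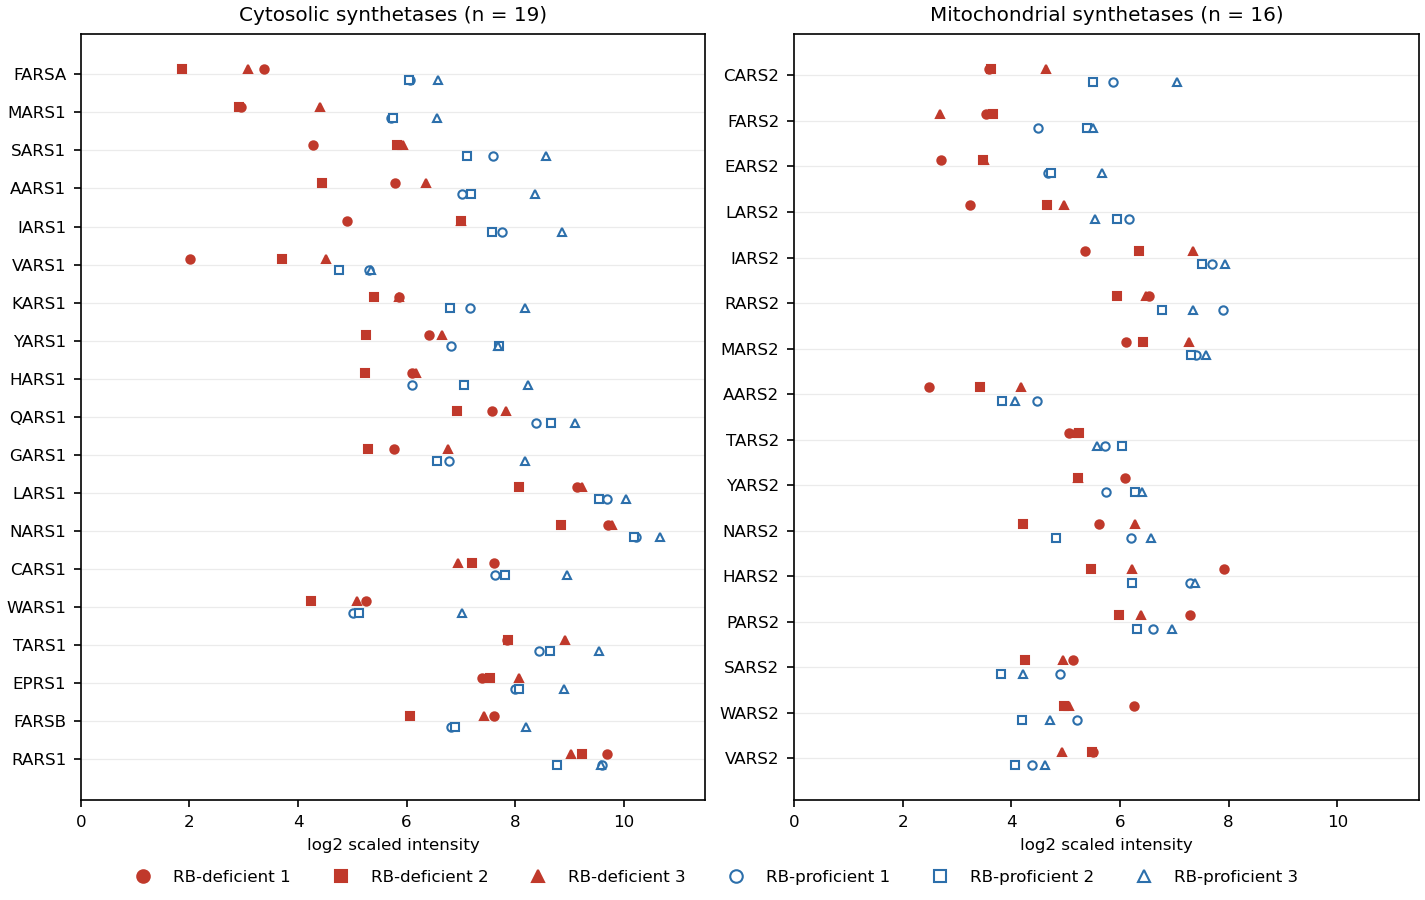
Log2 scaled intensity (x axis) of each measured synthetase gene in each array, with cytosolic enzymes on the left and mitochondrial enzymes on the right, ordered by the fitted difference. Filled red symbols are RB-deficient arrays and open blue symbols RB-proficient arrays, with the symbol shape giving the array number. The red symbols of FARSA lie between 1.86 and 3.37, all below its blue symbols, while those of RARS1 lie among them.

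FARSA showed the widest separation of all members. It encodes the alpha subunit of the cytosolic phenylalanyl-tRNA synthetase, an enzyme of 2 kinds of subunit in which FARSB provides the beta subunit. FARSA, probe set 8034589, gave 3.37, 1.86 and 3.07 in RB-deficient arrays 1 to 3, against 6.06, 6.05 and 6.57 in RB-proficient arrays 1 to 3. The difference was −3.46 (SE 0.55, 95% interval −4.70 to −2.22), or 11-fold lower, and FARSA ranked 13 of 18417 genes by its p. Its size depended on how low signals were treated, at −2.23 with a floor of 16 (adjusted p 0.0415) and −1.97 with an offset of 16 (adjusted p 0.0248). FARSB gave 7.62, 6.05 and 7.42 in RB-deficient arrays and 6.81, 6.89 and 8.20 in RB-proficient arrays, with overlapping groups and a difference of −0.27 (SE 0.63), or 0.18 without RB-proficient array 3. The log2 ratio of FARSA over FARSB, taken within each array, was −4.25, −4.19 and −4.35 in RB-deficient arrays and −0.75, −0.84 and −1.63 in RB-proficient arrays, a difference of −3.19 (SE 0.28). An exact two-sided permutation test of that ratio gave p = 0.1, the smallest that 3 arrays against 3 allow, and this pair was chosen after its values were seen. The 2 subunits of this enzyme thus had unequal differences in every RB-deficient array.

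MARS1 and SARS1 came next among the cytosolic enzymes. MARS1, the methionyl-tRNA synthetase that serves initiation as well as elongation, gave 2.95, 2.91 and 4.41 in RB-deficient arrays and 5.71, 5.75 and 6.56 in RB-proficient arrays, a difference of −2.58 (SE 0.58, 6-fold lower, adjusted p 0.206). With RB-deficient arrays 1 and 2 left out it was −1.60. SARS1, the seryl enzyme, whose charged tRNA also starts the route to selenocysteine, gave 4.28, 5.82 and 5.93 in RB-deficient arrays and 7.59, 7.10 and 8.57 in RB-proficient arrays, a difference of −2.41 (SE 0.63, 5.31-fold lower, adjusted p 0.213). For both genes the groups lay apart by more than 1 log2 unit between their nearest arrays.

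AARS1, IARS1, VARS1 and KARS1, which charge alanine, isoleucine, valine and lysine, formed a second group with differences from −1.99 to −1.68. AARS1 gave 5.79, 4.44 and 6.35 in RB-deficient arrays and 7.02, 7.19 and 8.36 in RB-proficient arrays (SE 0.64). IARS1 gave 4.91, 7.00 and 7.00 in RB-deficient arrays and 7.76, 7.57 and 8.87 in RB-proficient arrays, and its difference of −1.76 (SE 0.69) became −1.07 without RB-deficient array 1. VARS1 gave 2.00, 3.70 and 4.51 in RB-deficient arrays and 5.30, 4.76 and 5.35 in RB-proficient arrays, and its difference of −1.73 (SE 0.67) became −1.04 without RB-deficient array 1. That array held the lowest IARS1 and VARS1 values of the series. KARS1, whose transcripts serve both compartments, gave 5.86, 5.40 and 5.85 in RB-deficient arrays and 7.17, 6.79 and 8.19 in RB-proficient arrays, the tightest RB-deficient values of the 4 (SE 0.54).

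GARS1, the glycyl enzyme that also serves both compartments, overlapped between groups. It gave 5.77, 5.30 and 6.77 in RB-deficient arrays and 6.78, 6.57 and 8.18 in RB-proficient arrays, a difference of −1.23 (SE 0.63), or −0.73 without RB-proficient array 3. Without GARS1 and KARS1 the cytosolic median was −1.27, as with them. QARS1, the glutaminyl enzyme, gave 7.56, 6.93 and 7.83 in RB-deficient arrays and 8.37, 8.65 and 9.11 in RB-proficient arrays, a difference of −1.27 (SE 0.50). Its groups were apart, as were those of YARS1 (−1.29), LARS1 (−0.95), NARS1 (−0.91) and CARS1 (−0.88), which charge tyrosine, leucine, asparagine and cysteine. CARS1 was −0.47 without RB-proficient array 3, and LARS1 −0.57 without RB-deficient array 2.

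The smallest cytosolic differences were those of RARS1, FARSB, EPRS1, TARS1 and WARS1. RARS1, the arginyl enzyme, gave 9.69, 9.23 and 9.02 in RB-deficient arrays and 9.59, 8.76 and 9.57 in RB-proficient arrays, a difference of 0.0072 (SE 0.50, 95% interval −1.12 to 1.13), whose sign was turned in the values without scaling (−0.038). EPRS1, which joins the glutamyl and prolyl enzymes in 1 chain, differed by −0.66 (SE 0.51), and TARS1, the threonyl enzyme, by −0.66 (SE 0.55). Without RB-proficient array 3 these were −0.37 for EPRS1 and −0.33 for TARS1, and TARS1 was −1.02 without RB-deficient array 3. WARS1, the tryptophanyl enzyme and an interferon-gamma target, gave 5.25, 4.25 and 5.09 in RB-deficient arrays and 5.02, 5.13 and 7.02 in RB-proficient arrays. Its difference of −0.86 (SE 0.65) became −0.21 without RB-proficient array 3, the array that alone lay above the RB-deficient range, and −0.55 without RB-deficient array 2. Of 10 measured interferon-gamma response genes 6 were lower, with a median of −0.30, against 58.6% of all genes lower. Groups were apart as lower for 0 of them and as higher for 2, against 15.3% and 7.12% of all genes.

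RB-proficient array 3 was the highest of its group for most cytosolic enzymes. It was so for 17 of 19 cytosolic enzymes (89.5%) and 10 of 16 mitochondrial ones (62.5%), against 44.3% of all genes. Its median deviation from the RB-proficient mean was 0.67 for cytosolic enzymes, 0.24 for mitochondrial enzymes and 0.10 for all genes. Deviations from the same mean in RB-deficient arrays 1, 2 and 3 had medians of −1.03, −1.69 and −0.75 for cytosolic enzymes, −0.76, −1.11 and −0.50 for mitochondrial enzymes, and −0.14, −0.37 and −0.14 for all genes. Both compartments were therefore lower than the median gene in each RB-deficient array, and RB-deficient array 2 was the lowest of the 6 arrays for 12 cytosolic enzymes. Without RB-proficient array 3 the cytosolic median was −0.81 with 17 lower, and the mitochondrial median −0.74 with 12 lower. The cytosolic minus mitochondrial median, −0.58 with all arrays, was −0.068 without that array and −0.20 without RB-deficient array 2. The gap between these medians was thus small without RB-proficient array 3. No other measure of the gap was taken with an array left out. Without RB-deficient arrays 1 and 2 the medians were −0.75 and −0.50, against −0.14 for all genes.

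**Figure D2:**
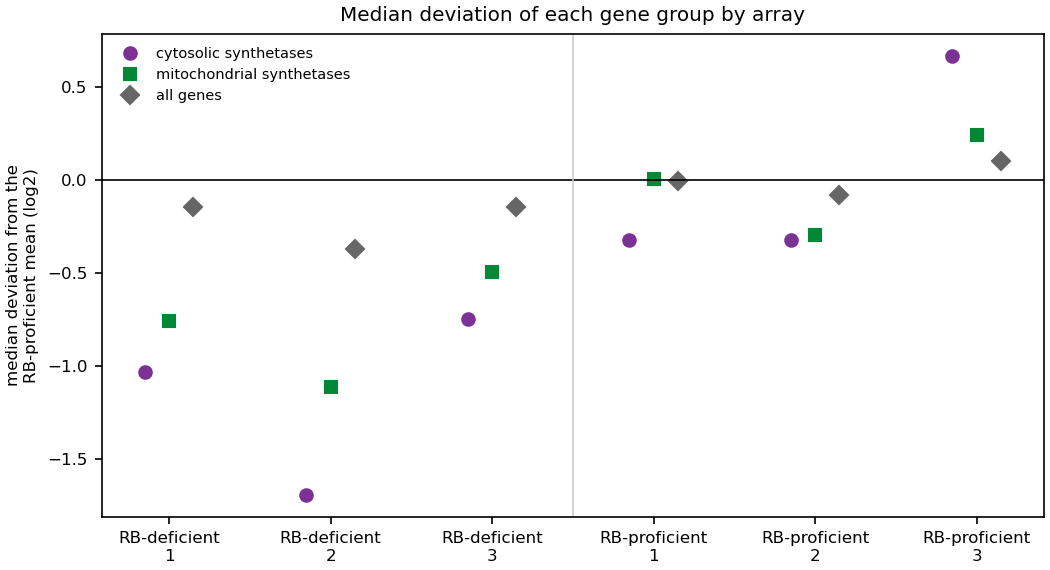
Median deviation from the RB-proficient mean (y axis, log2 scale) over the 19 cytosolic synthetases, the 16 mitochondrial synthetases and all 18417 genes, for each array on the x axis. In RB-deficient arrays 1 to 3 the cytosolic medians are −1.03, −1.69 and −0.75, below those of all genes, and RB-proficient array 3 stands above 0 at 0.67.

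Some promoters of the cytosolic genes carried the same element. The promoter windows are those of RefSeq on GRCh38.p14, 250 bases before to 50 after the start of each gene, and 31 of the 36 members had one. AARS2, LARS1, VARS1, VARS2 and YARS1 were not searched. The C/EBP-ATF response element, the letters TGATGNAA on either strand, which ATF4 binds with C/EBP partners, was found in 6 of 16 cytosolic promoters (37.5%) and 1 of 14 mitochondrial promoters (7.14%), against 3.67% of 27305 promoters. The 6 cytosolic stretches and the mitochondrial one are shown 5′ to 3′ on the strand of the gene, with the match in capitals, because the cytosolic ones all hold TGATGCAA on one strand or the other, in most cases close to the start. YARS2 holds TGATGGAA. Positions count from the start of the gene, −1 being the base before it. In MARS1, CARS1 and IARS1 the match began at −4, −2 and −13, in TARS1 and NARS1 at 3 and 15 past the start, and in AARS1 and YARS2 at −187 and −197.
AARS1, chr16:70289676-70289753, minus strand: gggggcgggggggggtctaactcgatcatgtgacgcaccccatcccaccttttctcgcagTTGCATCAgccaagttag
CARS1, chr11:3057408-3057485, minus strand: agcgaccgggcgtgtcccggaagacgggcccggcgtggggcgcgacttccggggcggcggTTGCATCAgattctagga
IARS1, chr9:92293693-92293770, minus strand: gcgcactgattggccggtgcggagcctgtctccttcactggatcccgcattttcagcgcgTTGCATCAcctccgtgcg
MARS1, chr12:57488004-57488081, plus strand: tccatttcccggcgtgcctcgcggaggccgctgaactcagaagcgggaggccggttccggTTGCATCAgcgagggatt
NARS1, chr18:57621809-57621882, minus strand: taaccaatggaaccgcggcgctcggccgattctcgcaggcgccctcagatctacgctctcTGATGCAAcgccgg
TARS1, chr5:33440907-33440984, plus strand: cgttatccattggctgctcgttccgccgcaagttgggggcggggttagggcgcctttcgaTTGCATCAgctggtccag
YARS2, chr12:32756077-32756147, minus strand: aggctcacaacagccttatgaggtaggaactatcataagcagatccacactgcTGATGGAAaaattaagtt

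Cytosolic enzymes with and without the element had similar median differences. The 6 with a match had a median difference of −1.33, from −2.58 for MARS1 to −0.66 for TARS1, and the 10 without one had a median of −1.25, from −3.46 for FARSA to 0.0072 for RARS1. ATF4 itself gave 9.56, 9.10 and 8.70 in RB-deficient arrays and 9.05, 8.93 and 9.32 in RB-proficient arrays, a difference of 0.020 (SE 0.49). That value rests on the brighter of its 2 probe sets: with their mean the difference was −0.80 (adjusted p 0.481), so the probe sets disagree and no direction is given for ATF4. ASNS, asparagine synthetase and an ATF4 target, differed by −0.32 (SE 0.58), with the sign turned without RB-proficient array 1 (0.054) or RB-deficient array 1 (0.038). Of 26 measured genes of the ATF4 amino acid response outside the synthetases 15 were lower, with a median of −0.29, against 58.6% of all genes lower. Groups were apart as lower for 6 and as higher for 1, against 15.3% and 7.12% of all genes, and 0 passed the threshold. SHMT2, the mitochondrial serine hydroxymethyltransferase, differed by −2.93 (SE 0.65, adjusted p 0.206), and SLC3A2, the heavy chain of amino acid transporters, by −1.77 (SE 0.52, adjusted p 0.231). SLC7A1, a cationic amino acid transporter, was at the floor in RB-deficient array 1. The synthetases thus had a larger median difference than the rest of this response, a contrast given as a description.

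Amino acid sensing genes, among them the kinases that answer uncharged tRNA or amino acid supply, were lower for 13 of 16, with a median of −0.96 and 6 with groups apart as lower, against 15.3% of all genes. MTOR, the growth kinase, gave 4.45, 5.93 and 5.48 in RB-deficient arrays and 6.96, 7.26 and 7.38 in RB-proficient arrays (difference −1.91, SE 0.54, adjusted p 0.226). GCN1, which helps the kinase GCN2 sense uncharged tRNA, differed by −2.08 (SE 0.60, adjusted p 0.23). Of 21 measured genes of tRNA processing, export, editing and selenocysteine charging 18 were lower, with a median of −0.78, and 6 had groups apart as lower, against 15.3% of all genes. RTCB, the tRNA ligase, differed by −1.60 (SE 0.55), and RPP38 and RPP40, subunits of RNase P, by −1.61 (SE 0.52) and −2.64 (SE 0.86). Neither list had a gene past the threshold.

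The multi-synthetase complex and the other cytosolic enzymes had nearly the same median. The 7 measured enzymes of the complex (EPRS1, IARS1, KARS1, LARS1, MARS1, QARS1 and RARS1) had a median of −1.27, with 6 lower and 5 with groups apart, and the 12 others had a median of −1.26, with 12 lower and 7 with groups apart, all as lower, against 15.3% of all genes. Within the complex the differences ran from −2.58 for MARS1 to 0.0072 for RARS1. AIMP1, the scaffold that binds RARS1 in the complex, gave 7.12, 6.22 and 5.98 in RB-deficient arrays and 6.25, 6.42 and 6.92 in RB-proficient arrays, a difference of −0.088 (SE 0.52, 95% interval −1.26 to 1.08), with overlapping groups and a sign that turned with quantile normalization (0.060) and with centred arrays (0.046). Sorted by catalytic fold, the 9 cytosolic class I enzymes had a median of −1.27 and the 9 class II enzymes −1.29, leaving out EPRS1, which holds both. For mitochondrial enzymes these medians were −1.02 over 9 of class I and −0.49 over 7 of class II.

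**Figure D3:**
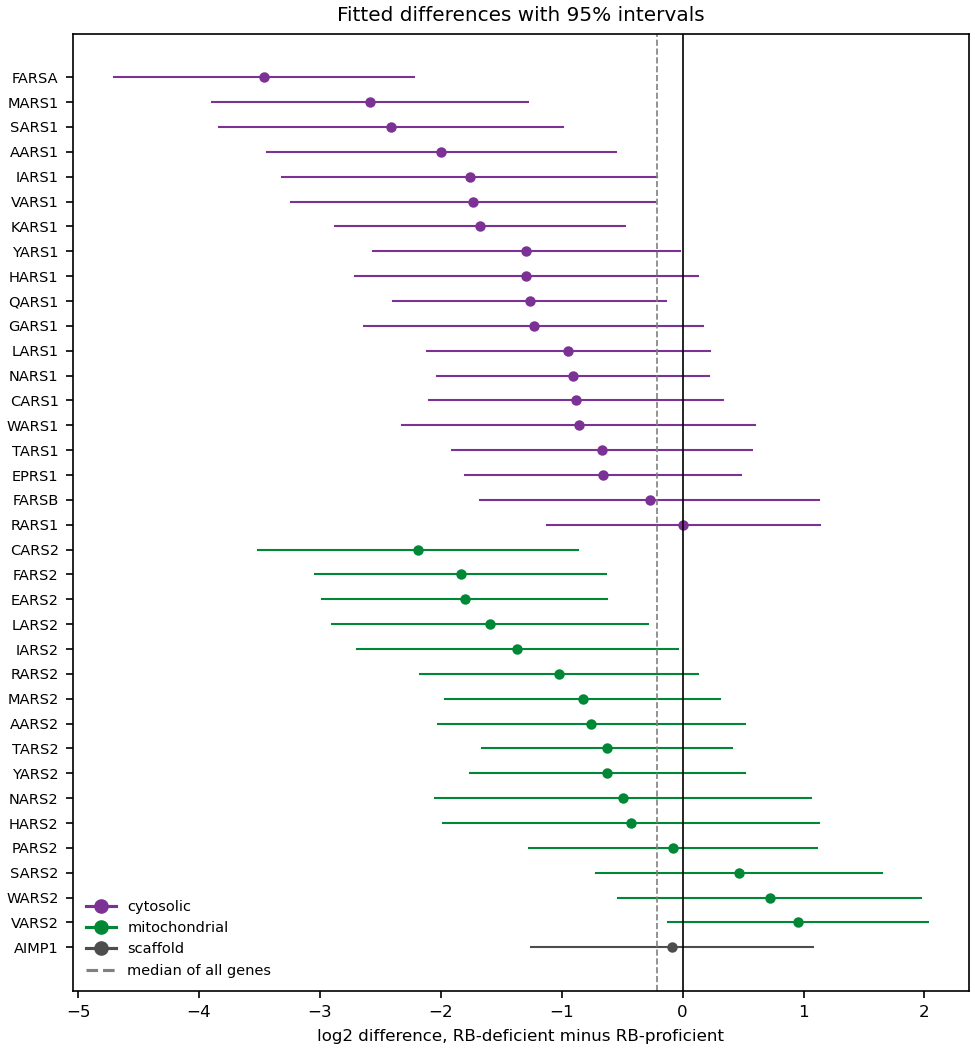
Fitted log2 difference, RB-deficient minus RB-proficient (x axis), of each member with its 95% interval from limma. Purple marks cytosolic enzymes, green mitochondrial enzymes and grey AIMP1, and the dashed line is the median of all genes at −0.21. FARSA lies farthest to the left at −3.46, and VARS2, at 0.96, farthest to the right.

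Among the mitochondrial enzymes CARS2, FARS2, EARS2, LARS2 and IARS2 were lower with groups apart. CARS2, the cysteinyl enzyme, gave 3.59, 3.62 and 4.63 in RB-deficient arrays and 5.87, 5.49 and 7.05 in RB-proficient arrays, a difference of −2.19 (SE 0.59, 4.56-fold lower, adjusted p 0.213). FARS2, the phenylalanyl enzyme, which works as a monomer in mitochondria, gave 3.54, 3.67 and 2.68 in RB-deficient arrays and 4.50, 5.40 and 5.50 in RB-proficient arrays, a difference of −1.84 (SE 0.54). EARS2, the glutamyl enzyme that also charges mitochondrial glutamine tRNA with glutamate, gave 2.70, 3.47 and 3.49 in RB-deficient arrays and 4.68, 4.73 and 5.66 in RB-proficient arrays, a difference of −1.80 (SE 0.53). With any array left out the differences of these 3 stayed at or below −1.48, and with a floor of 16 they were −1.02 for EARS2 and −1.13 for FARS2.

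LARS2, the leucyl enzyme, gave 3.24, 4.65 and 4.97 in RB-deficient arrays and 6.16, 5.94 and 5.54 in RB-proficient arrays, and its difference of −1.59 (SE 0.58) became −1.07 without RB-deficient array 1. IARS2, the isoleucyl enzyme, gave 5.35, 6.35 and 7.34 in RB-deficient arrays and 7.69, 7.51 and 7.94 in RB-proficient arrays, and its difference of −1.37 (SE 0.59) became −0.87 without the same array. RB-deficient array 3 came close to the RB-proficient range for IARS2. RARS2 (−1.02), MARS2 (−0.83) and TARS2 (−0.63), for arginine, methionine and threonine, also had groups apart. AARS2, YARS2, NARS2, HARS2 and PARS2, for alanine, tyrosine, asparagine, histidine and proline, overlapped between groups, with differences from −0.75 to −0.081. AARS2 was −0.32 without RB-deficient array 1 and −1.16 without RB-deficient array 3.

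VARS2, WARS2 and SARS2, which charge valine, tryptophan and serine, were the mitochondrial enzymes with higher values. VARS2 gave 5.51, 5.48 and 4.93 in RB-deficient arrays and 4.37, 4.06 and 4.61 in RB-proficient arrays, all RB-deficient values being the higher, a difference of 0.96 (SE 0.48, 1.94-fold higher, adjusted p 0.409). WARS2 gave 6.25, 4.97 and 5.07 in RB-deficient arrays and 5.21, 4.20 and 4.72 in RB-proficient arrays, with overlap, a difference of 0.72 (SE 0.56), or 0.31 without RB-deficient array 1 and 0.47 without RB-proficient array 2. SARS2 gave 5.13, 4.25 and 4.95 in RB-deficient arrays and 4.90, 3.81 and 4.22 in RB-proficient arrays, with overlap, a difference of 0.47 (SE 0.53). With each array left out in turn it ran from 0.22 without RB-proficient array 2 to 0.76 without RB-proficient array 1. All 3 kept their positive sign in each alternative setting that measured them, and 0 passed the threshold.

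Other genes of mitochondrial translation were lower for 18 of 24 measured, with a median of −0.75 a median close to that of the mitochondrial synthetases. Groups were apart as lower for 6 of the 24, against 8 of 16 mitochondrial synthetases and 15.3% of all genes. MTFMT, which formylates the initiator methionyl-tRNA, gave 4.94, 3.90 and 4.52 in RB-deficient arrays and 6.30, 6.79 and 6.48 in RB-proficient arrays, a difference of −2.07 (SE 0.50, adjusted p 0.209). TUFM, the elongation factor that brings charged tRNA to the mitochondrial ribosome, gave 6.03, 4.24 and 2.95 in RB-deficient arrays and 6.49, 7.02 and 7.95 in RB-proficient arrays (difference −2.75, SE 0.79). HSD17B10, a subunit of mitochondrial RNase P, differed by −2.13 (SE 0.51). Genes that maintain and transcribe mitochondrial DNA had no common direction, with 7 of 14 lower and 1 with groups apart as lower, against 15.3% of all genes.

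The E-box CACGTG, which MYC and related factors bind and which reads the same on both strands, was found in 3 of 14 mitochondrial promoters (21.4%) and 1 of 16 cytosolic ones (6.25%, IARS1), against 7.43% of all promoters. Its 3 mitochondrial carriers are shown, with the match in capitals, because CARS2 and EARS2 were among the mitochondrial enzymes with the largest differences. The 3 had a median difference of −1.80, from −2.19 for CARS2 to −0.83 for MARS2. The 11 without a match had a median of −0.62, from −1.84 for FARS2 to 0.72 for WARS2, so the ranges overlapped. A link between the element and the differences was not tested. The ETS letters CCGGAAG, searched on both strands, were in 8 of 16 cytosolic and 6 of 14 mitochondrial promoters (42.9%), against 10.7% of all. The NRF1 motif, a palindrome, was in 1 mitochondrial promoter (MARS2), and 1.36% of all promoters held it. The E2F letters TTTGGCGC or TTTCCCGC, of the factors that RB restrains, were in 0 cytosolic promoters and 1 mitochondrial one (RARS2), against 2.31% of all. These 4 motifs were chosen after the expression values were seen, no match overlapped one of another motif, and a match is a description of letters.
CARS2, chr13:110706503-110706578, minus strand: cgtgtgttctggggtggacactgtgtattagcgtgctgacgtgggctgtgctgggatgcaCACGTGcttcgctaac
EARS2, chr16:23557350-23557425, minus strand: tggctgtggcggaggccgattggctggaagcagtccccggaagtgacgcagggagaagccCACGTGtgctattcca
MARS2, chr2:197705298-197705373, plus strand: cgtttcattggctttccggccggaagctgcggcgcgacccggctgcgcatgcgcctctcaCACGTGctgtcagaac

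HARS1 and HARS2, the cytosolic and mitochondrial histidyl enzymes, start back to back on chromosome 5. The 84 bases between their starts hold the ETS letters once on each strand, in capitals, and are shown because both genes share them.
HARS2 strand, chr5:140691371-140691454, plus strand: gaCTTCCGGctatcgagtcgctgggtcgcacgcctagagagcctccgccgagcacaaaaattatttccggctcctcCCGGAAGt

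Despite the shared stretch the pair was not read alike in every array. HARS1 gave 6.11, 5.24 and 6.17 in RB-deficient arrays and 6.10, 7.06 and 8.23 in RB-proficient arrays, a difference of −1.29 (SE 0.63), or −0.74 without RB-proficient array 3. HARS2 gave 7.91, 5.47 and 6.23 in RB-deficient arrays and 7.28, 6.23 and 7.38 in RB-proficient arrays, a difference of −0.43 (SE 0.69). RB-deficient array 1 held the highest HARS2 value of the series. The HARS1 over HARS2 ratio differed by −0.86 (SE 0.87, exact permutation p = 0.5), with overlap. SARS2 shares 290 bases of its window with MRPS12, a mitochondrial ribosomal protein gene, which differed by −1.96 (SE 0.77) where SARS2 differed by 0.47. The other measured divergent partners whose windows overlap those of members were lower as the members were, and so were 58.6% of all genes. They were UBFD1 beside EARS2 (−1.31, SE 0.87), LYRM4 beside FARS2 (−1.23, SE 0.61) and TERF2IP beside KARS1 (−1.11, SE 0.71). ORC3 beside RARS2 (−1.83, SE 0.70) and WDR25 beside WARS1 (−0.46, SE 0.53) complete them, and each was short of the threshold.

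Enzymes of the same amino acid were then set against each other within each array, which removes what both share. Of 17 pairs of a cytosolic and a mitochondrial enzyme, the ratio was lower for 12 and higher for 5, with a median of −0.58. FARS2 and EPRS1 are each used in more than a single pair, so the pairs are not independent. The groups were apart for 4 pairs as lower and 2 as higher and overlapped for 11. How often ratios of other genes have groups apart was not computed, so these counts are a description only. An exact permutation test of 3 arrays against 3 cannot go below p = 0.1, so none of the 17 could pass, and the smallest p adjusted over the pairs was 0.283.

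The 4 pairs apart as lower were those of serine, valine and methionine and, for phenylalanine, that of the FARSA subunit only. SARS1 over SARS2 was −0.85, 1.57 and 0.98 in RB-deficient arrays and 2.69, 3.29 and 4.35 in RB-proficient arrays, a difference of −2.88 (SE 0.88). VARS1 over VARS2 was −3.50, −1.78 and −0.43 in RB-deficient arrays and 0.92, 0.70 and 0.74 in RB-proficient arrays, a difference of −2.69 (SE 0.89), VARS1 having the lower and VARS2 the higher values in RB-deficient arrays. MARS1 over MARS2 differed by −1.76 (SE 0.28), and FARSA over FARS2 by −1.63 (SE 0.71). In the other direction RARS1 over RARS2 differed by 1.03 (SE 0.28) and EPRS1 over EARS2 by 1.15 (SE 0.20). For arginine and glutamate the mitochondrial enzyme was thus the one with the lower difference. FARSB over FARS2 also went that way, at 1.56 (SE 0.78) with overlap, so phenylalanine had no single direction. So did CARS1 over CARS2, at 1.31 (SE 0.54), and LARS1 over LARS2, at 0.65 (SE 0.79), both with overlap. WARS1 over WARS2 differed by −1.58 (SE 0.79), with overlap. TARS1 over TARS2, for threonine, was the most even, at −0.038 (SE 0.56).

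**Figure D4:**
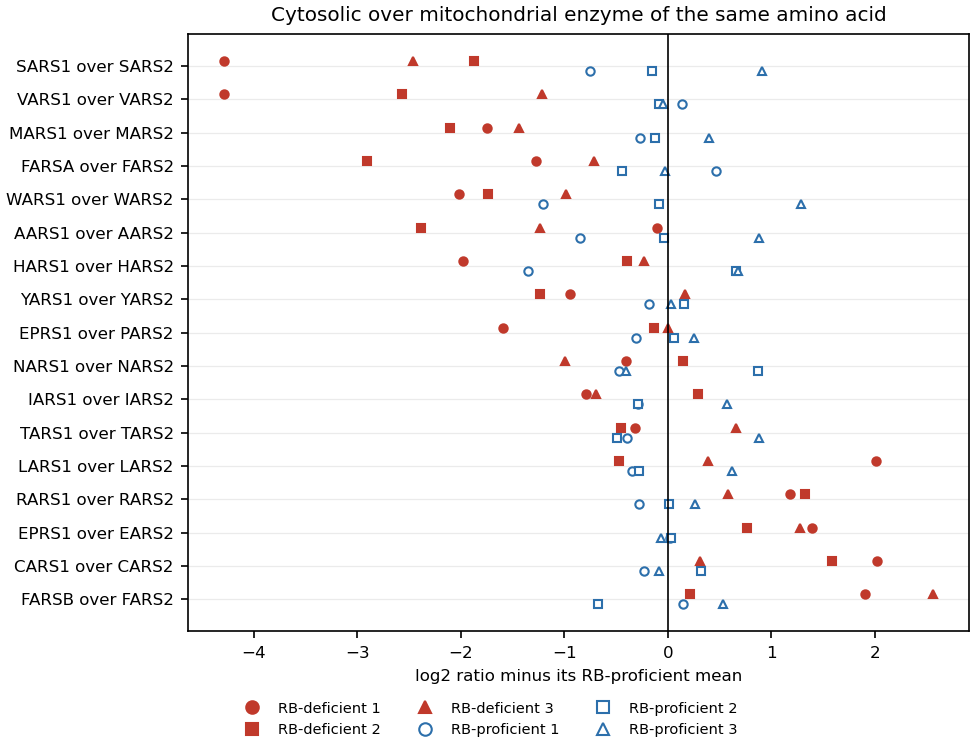
Log2 ratio of the cytosolic over the mitochondrial enzyme of the same amino acid in each array, minus the RB-proficient mean of that ratio (x axis), for 17 pairs ordered by their difference. Filled red symbols are RB-deficient arrays and open blue symbols RB-proficient arrays, with shapes giving the array number. The pairs of serine and valine lie farthest to the left and those of FARSB over FARS2 and CARS1 over CARS2 farthest to the right.

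The spread within groups was larger in RB-deficient arrays for 23 of 36 members, and for 14916 of all 18417 genes. The median SD of a member was 0.61 in RB-deficient and 0.51 in RB-proficient arrays, against 0.84 and 0.40 over all genes. No member was at the floor of 1 in any array, but background is unknown, so the differences of dim members such as FARSA and VARS1 may be bounds.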

How the data were processed

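The deposited table held linear intensities for each probe set in each array, made by the authors with Affymetrix Expression Console 1.1, per the submitters' processing notes. How signals were summarised, background-corrected or normalized is not given in the sources used here. Per the labels' protocols, total RNA taken from cells and matrix together was amplified (WT-Ovation Pico) and biotin-labelled. Detection calls were not used, so background is unknown, and the number of arrays limits the precision.

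Each array was scaled to the median of the 6 array medians, with 1 as the lowest value before taking log2. Of 33297 probe sets 19460 carried 1 symbol in the platform annotation, 1754 several and 12083 none or no entry, and 18417 genes entered the test. The group test was two-sided, from lmFit and eBayes of limma 3.58.1 under R 4.3.3 without covariates, with Benjamini-Hochberg adjustment over all genes. The test was checked on simulated data (10 runs). Same-numbered arrays did not deviate together (correlations −0.12, 0.07 and −0.11), so no pairing was used. The labels name neither dates nor batches.

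The members, gene lists and tests were chosen with earlier results of these data known. Values in every array are given for the 8 cytosolic and 6 mitochondrial enzymes of smallest p, the 2 highest differences of each compartment, AIMP1, GARS1, KARS1 and the histidyl and tryptophanyl pairs, and from the other lists at most 3 genes of smallest p. SARS2, FARSA over FARSB and the divergent neighbours were added after seeing values. Alternatives covered scaling, floor, dim genes, probe sets, variance model, replicate block and arrays left out.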

Additional observations from a re-analysis of the deposited data

How the results depend on the processing

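In every one of 17 alternative settings that measured them, 28 of 36 members kept the direction of their difference, among them FARSA, MARS1, SARS1, CARS2, FARS2, EARS2 and VARS2. The filter on the dimmest 50% of genes left 28 members and dropped FARSA, MARS1, VARS1, EARS2, FARS2, VARS2, AARS2 and SARS2, and that on the dimmest 25% dropped AARS2. The count of genes past an adjusted p of 0.05, 1 with all arrays and a floor of 1, was 0 with quantile normalization, without the dimmest 25% of genes and without RB-deficient arrays 1 and 2, 4 without the dimmest 50%, 58 with a floor of 16, 193 with an offset of 16 and 61 with eBayes with trend and robust, and 0 to 4 with an array left out. Members past it numbered 1, 3 and 1 in those last 3 settings with all arrays and 0 in every other one. With the replicate block 1 gene and 0 members passed and 11 members had an unadjusted p under 0.05, all lower (2021 of 18417 genes were), and no member's call changed. With an array left out the cytosolic median ran from −1.46 to −0.81, the mitochondrial median from −1.03 to −0.70 and their gap from −0.74 to −0.068. Without RB-deficient arrays 1 and 2, where the lone RB-deficient array is assumed to vary like the others, the cytosolic median was −0.75, the mitochondrial median −0.50 and the gap −0.25. The sign turned for 8 members in at least 1 setting. Without RB-deficient arrays 1 and 2 the differences were 0.12 for FARSB, −0.29 for RARS1, 0.040 for TARS1, 0.064 for AARS2 and 0.42 for NARS2. It was −0.038 for RARS1 without scaling, 0.061 for PARS2 and 0.060 for AIMP1 with quantile normalization, and 0.053 for PARS2 and 0.046 for AIMP1 with centred arrays. With an array left out FARSB ran from −0.57 to 0.22, RARS1 from −0.26 to 0.15, HARS2 from −1.12 to 0.11, NARS2 from −1.01 to 0.087, PARS2 from −0.45 to 0.20 and AIMP1 from −0.43 to 0.14. The cause was not tested, apart from the lower count of genes or arrays in the filters and omissions themselves. Values of dim genes depend on the floor, and signal over background is unknown.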
